A study of Mus musculus with 32 samples.

Results

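A group of 6 genes encodes transcription factors that carry the circadian clock's output through D-boxes and restrain it through E-boxes: Dbp, Tef, Hlf, Nfil3, Bhlhe40 and Bhlhe41. They were chosen by name, as the 6 rows of the deposited count table whose Ensembl identifiers map to these symbols, out of 50686 genes. All 6 passed the filter on low counts that left 15505 genes for testing. They were followed in brown fat from between the scapulae (iBAT), a depot that burns fuel for warmth, at 8 Zeitgeber times (ZT, hours after lights on) spaced by 3 h, with 4 mice and 4 RNA-sequencing libraries at each. The animals were C57BL/6J males of 10 weeks, fed chow, not fasted, housed in mild cold and entrained to equal periods of light and dark. Lights came on at ZT0, when mice turn inactive, and went off at ZT12, when they turn active, and the groups differed only in the time of collection and, with it, in the sequencing lane. No group was kept in constant darkness or on restricted feeding, so the clock's own rhythm, light and food intake cannot be told apart here.

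DBP, TEF and HLF are the proline- and acidic amino acid-rich (PAR) basic leucine zipper factors, which activate genes that hold a D-box. NFIL3, also called E4BP4, is a basic leucine zipper repressor that competes for the same D-boxes. The DEC proteins DEC1 (Bhlhe40) and DEC2 (Bhlhe41) are basic helix-loop-helix repressors that bind the E-boxes through which CLOCK and BMAL1, the latter encoded by Arntl, drive transcription. In liver and other tissues the PAR factors are known to pass the clock's timing on to enzymes of detoxification and of vitamin B6 and haem metabolism.

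On the GRCm38 assembly, in the GENCODE annotation, Dbp (ENSMUSG00000059824) lies on chromosome 7 from 45705088 to 45710203, on the forward strand. Tef (ENSMUSG00000022389) lies on chromosome 15 from 81802421 to 81826863, on the forward strand, and Hlf (ENSMUSG00000003949) on chromosome 11 from 90336536 to 90390895, on the reverse strand. Nfil3 (ENSMUSG00000056749) lies on chromosome 13 from 52967209 to 52981073, on the reverse strand. The DEC genes share chromosome 6, where Bhlhe40 (ENSMUSG00000030103) runs from 108660629 to 108666925 on the forward strand and Bhlhe41 (ENSMUSG00000030256) from 145858243 to 145865558 on the reverse strand. Exons of Dbp share 539 bases with exons of Sphk2 on the opposite strand, and although the library kit kept strand, the sources do not state whether the counting used it. Opposite-strand genes with few reads overlap 3 more members: Gm43909 shares 1280 of the 6720 exon bases of Bhlhe41 (57 reads over all libraries), Gm17597 193 bases of Tef (324 reads) and 0610040F04Rik 118 bases of Bhlhe40 (102 reads). Sphk2 averaged 22.9 CPM, its time-point means lay between 16.3 and 27.8 CPM, and it did not pass the 24 h cosine test (edgeR, adjusted p = 0.0608).

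Promoter windows from 250 bases before to 50 after a transcription start, taken from RefSeq on GRCm38.p6, were searched on both strands for 3 motifs that these genes are known to respond to or to bind. They were the E-box CACGTG, the D-box TTANGTAA and TNGGTCA, here called the ROR motif, where N is any base. The ROR motif covers only part of an element for REV-ERB and ROR, so a match is not a whole element. Windows were at hand for Dbp, Hlf, Nfil3, Bhlhe41 and, with 2 starts, Tef. These RefSeq starts are not those of the GENCODE genes above. Both Tef windows lie inside the GENCODE gene, and those of Dbp, Nfil3 and Bhlhe41 partly overlap theirs. The windows that held a match are shown, since the clock's activators and nuclear receptors are known to act on motifs of these kinds. Only the bases before the start are printed, 5′ to 3′ on the gene's strand, with each match in capitals.
Tef, first start, chr15:81802423-81802672, forward strand: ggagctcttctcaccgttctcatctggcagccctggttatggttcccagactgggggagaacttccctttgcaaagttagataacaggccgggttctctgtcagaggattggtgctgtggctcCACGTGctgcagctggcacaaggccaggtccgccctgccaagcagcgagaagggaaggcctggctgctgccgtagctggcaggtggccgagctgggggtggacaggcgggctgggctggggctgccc
Tef, second start, chr15:81811164-81811413, forward strand: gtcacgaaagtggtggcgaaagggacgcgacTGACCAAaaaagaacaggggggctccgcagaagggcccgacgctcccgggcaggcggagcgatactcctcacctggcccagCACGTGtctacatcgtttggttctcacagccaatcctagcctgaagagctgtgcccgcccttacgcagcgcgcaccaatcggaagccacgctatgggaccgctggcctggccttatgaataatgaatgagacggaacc
Bhlhe41, chr6:145865421-145865670, reverse strand: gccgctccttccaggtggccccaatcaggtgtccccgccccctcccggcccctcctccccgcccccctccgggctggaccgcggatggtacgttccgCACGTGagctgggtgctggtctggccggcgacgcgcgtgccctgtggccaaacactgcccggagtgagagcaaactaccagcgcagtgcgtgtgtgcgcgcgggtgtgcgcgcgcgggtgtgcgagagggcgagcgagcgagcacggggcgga
Nfil3, chr13:52981040-52981289, reverse strand: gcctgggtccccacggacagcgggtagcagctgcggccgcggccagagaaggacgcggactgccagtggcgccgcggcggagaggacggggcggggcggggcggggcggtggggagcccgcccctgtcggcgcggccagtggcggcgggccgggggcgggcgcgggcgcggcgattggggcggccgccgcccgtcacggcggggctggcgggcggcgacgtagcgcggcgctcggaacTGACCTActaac

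Both Tef windows held an E-box, 127 bases before the first start and 138 bases before the second. The second Tef window also held the ROR motif 219 bases before its start, as TTGGTCA on the other strand. The Bhlhe41 window held an E-box 153 bases before the start. The Nfil3 window held the ROR motif 12 bases before the start, as TAGGTCA on the other strand. The windows of Dbp and Hlf held none of the 3 motifs, which says only that these letters are not in those windows. Of all 32851 windows in the table, 7.15% held the E-box, 2.32% the D-box and 11.0% the ROR motif. The 3 motifs do not overlap one another in these windows, and a match is a description of sequence, not a site shown to be bound.

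Levels are given in CPM, read counts divided by a library total that TMM factors adjust. Total counts ran from 16300770 to 18254659 per library, and the 6 genes had between 53 and 4708 reads in a library. Brown adipocyte markers were high in all 32 libraries, with summed levels from 8808 to 14370 CPM, and Ucp1 averaged 2209 CPM. Markers of skeletal muscle, the tissue under the fat pad, varied most: their sum ran from 1.95 to 6266 CPM and passed 3000 CPM in 6 libraries, spread over 5 time points. Macrophage markers ran from 30.4 to 208 CPM, with the highest value in replicate 3 of ZT9, blood markers from 265 to 1137 CPM and white adipocyte markers from 46.8 to 418 CPM. A 24 h cosine was present in 2 of 8 brown adipocyte, 0 of 6 muscle, 0 of 5 blood, 2 of 4 macrophage, 2 of 4 lymphoid, 2 of 3 endothelial and 2 of 4 white adipocyte markers. Lane and time of day were tied, with ZT0, ZT3 and ZT6 on lane 2, ZT9, ZT12 and ZT15 on lane 3, and ZT18 and ZT21 on lane 4, per the library names in the labels. The steps from ZT6 to ZT9, from ZT15 to ZT18 and from ZT21 to ZT0, and all contrasts 12 h apart, therefore cross lanes, and in them lane and time cannot be told apart. Since the tissue was measured in bulk, fewer cells of a type and less RNA per cell cannot be told apart either.

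**Figure D1:**
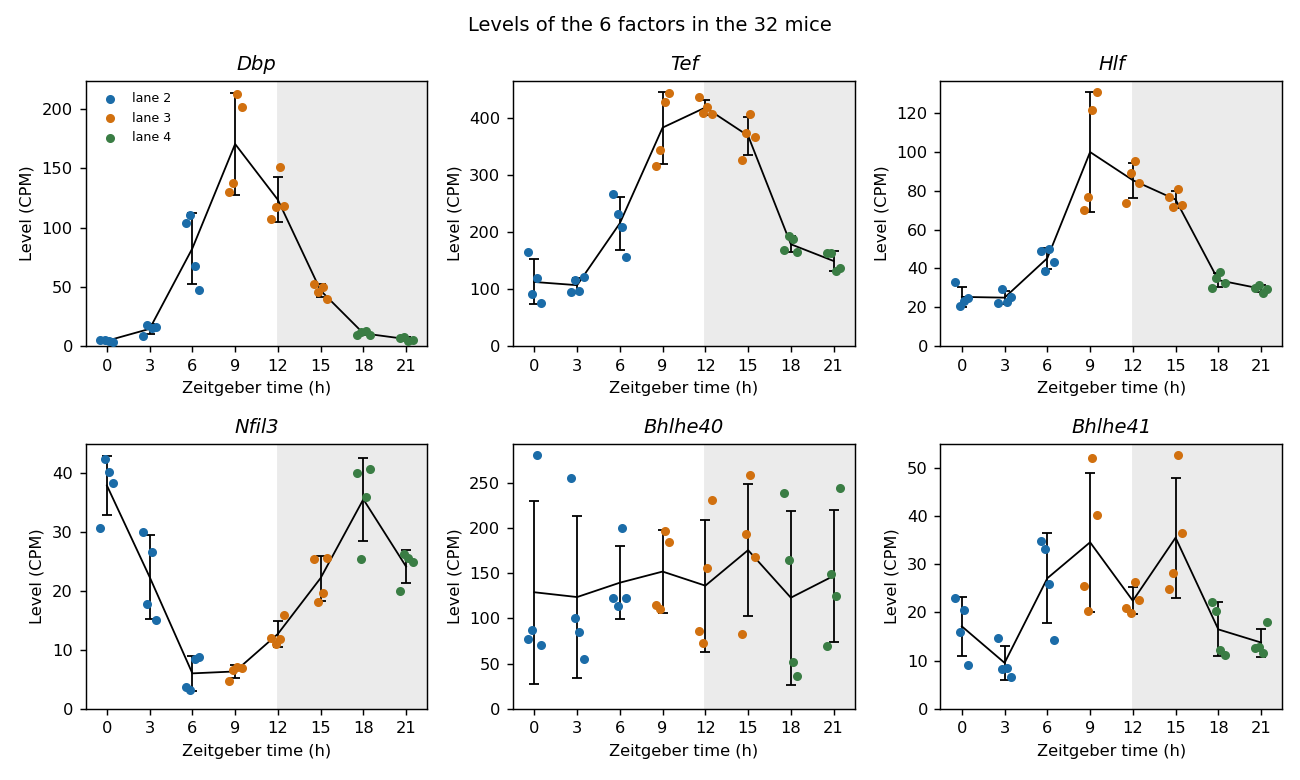
Levels of the 6 factors in CPM (vertical axes, each from 0) against Zeitgeber time in hours (horizontal axes), with 1 point per mouse coloured by sequencing lane, black lines through the means of 4 mice and bars of 1 SD; the shading marks the dark phase. Dbp rises from 4.46 CPM at ZT0 to 171 CPM at ZT9, Nfil3 is lowest at ZT6 and ZT9, and the Bhlhe40 points of every time point overlap those of the next.

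The first question was which of the 6 genes followed the day. It was 5 of them: Dbp, Tef, Hlf, Nfil3 and Bhlhe41 had a 24 h cosine component (edgeR quasi-likelihood test, Benjamini-Hochberg (BH) adjusted over all tested genes, threshold 0.05), as did 36.1% of all tested genes. The same 5 oscillated by JTK, a rank test against cosine templates, both at P under 0.05, where 36.4% of genes passed, and after BH adjustment, where 27.1% passed. They also differed between the 8 time points, as did 39.8% of genes. Bhlhe40 passed none of these tests (adjusted p = 0.824 for the cosine and 0.983 for any difference, edgeR). Adding lane to the cosine fit left Dbp, Tef, Hlf and Nfil3 past the threshold, against 17.2% of genes, while Bhlhe41 had an adjusted p of 0.374. Within lane 2, 5 of the 6 differed between time points (13.3% of genes), within lane 3 Dbp and Nfil3 (1.93% of genes), and within lane 4 Dbp alone (4.48% of genes, adjusted p = 0.0389). The lane 4 call of Dbp was lost when any of 7 of its 8 libraries was left out, the exception being replicate 2 of ZT21, and the lane 2 call of Bhlhe41 (adjusted p = 0.0293) was lost without any of 8 of the 12 libraries, all but replicates 1 and 4 of ZT0, 1 of ZT3 and 4 of ZT6.

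The median fitted amplitude of the 6 genes was 1.04 on the log2 CPM scale, beside 0.139 over all tested genes. An amplitude runs from the middle of the fitted curve to its peak, so that of Dbp, 2.66 ± 0.10 (SE), stands for a 40.2-fold range. It was the largest of the 15505 genes on this scale, computed with a prior count of 2. Tef (1.04 ± 0.07, SE) and Hlf (1.03 ± 0.07, SE) were alike in size, with a 95% interval of their difference from -0.12 to 0.10. Nfil3 reached 1.25 ± 0.14 (SE), a 5.62-fold range, and Bhlhe41 0.67 ± 0.15 (SE), a 2.54-fold range. For Bhlhe40 the amplitude was 0.19 ± 0.20 (SE), no larger than its error. These sizes depend on the fit. With lane in it they were 2.78 ± 0.18 (SE) for Dbp, 0.79 ± 0.15 for Tef, 0.61 ± 0.13 for Hlf, 1.71 ± 0.19 for Nfil3 and 0.59 ± 0.36 for Bhlhe41.

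Dbp, the founding PAR factor, changed most. At ZT0 its level in the 4 mice was 5.39, 4.86, 3.93 and 3.67 CPM, and at ZT3 it was 8.76, 18.0, 15.1 and 16.2 CPM. At ZT6 the mice spread from 47.5 to 111 CPM, with values of 104, 111, 67.8 and 47.5 CPM. At ZT9 they reached 130, 138, 213 and 202 CPM, the highest mean of the day (171 ± 42.7 CPM, SD, n = 4). No mouse of any of these 4 time points overlapped those of the one before. Dbp rose over each of the 3 steps: by 1.71 ± 0.25 (log2 fold change, SE) from ZT0 to ZT3, by 2.50 ± 0.24 from ZT3 to ZT6 and by 1.05 ± 0.23 from ZT6 to ZT9 (edgeR, adjusted p = 0.00014, 3.77e-07 and 0.013). The last of these calls was lost without replicate 3 of ZT6 (adjusted p = 0.0508) or replicate 4 of ZT9 (0.0554), and without the 4 libraries of high mitochondrial share, 2 of them at ZT9 (0.238). From ZT9 to ZT12 the mean went to 124 ± 19.0 CPM and the mice overlapped. Dbp then fell, with changes of -1.40 ± 0.23 to ZT15 and -2.12 ± 0.24 to ZT18 (adjusted p = 0.000951 and 2.47e-05), where the 4 mice had 9.70, 11.5, 12.7 and 9.17 CPM. At ZT21 they had 6.80, 7.81, 4.40 and 4.77 CPM, below every mouse of ZT18, a step that did not pass the threshold (adjusted p = 0.0643) but did in DESeq2 (0.0174).

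Tef, the thyrotroph embryonic factor, moved less and stayed high for longer. It was lowest at ZT3, with 94.3, 115, 96.7 and 121 CPM, and had 165, 90.7, 119 and 75.0 CPM at ZT0, so that those mice overlap. Its highest mean was at ZT12, where the mice lay within 407 and 437 CPM (418 ± 13.7 CPM, SD, n = 4), the tightest group of the 6 genes in proportion to its mean. ZT9 (383 ± 63.0 CPM) and ZT15 (369 ± 33.0 CPM) did not pass the threshold against ZT12 (adjusted p = 0.939 and 0.639). The log2 fold changes were 0.13 ± 0.17 (SE) from ZT9 to ZT12 and -0.18 ± 0.17 from ZT12 to ZT15. Tef rose by 1.01 ± 0.17 (log2, SE) from ZT3 to ZT6 and by 0.83 ± 0.17 from ZT6 to ZT9 (adjusted p = 0.0013 and 0.00954), and fell by 1.05 ± 0.17 from ZT15 to ZT18 (0.00194). At ZT18 the mice had 169, 193, 188 and 164 CPM, all below the lowest mouse of ZT15 at 327 CPM.

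Hlf, the hepatic leukaemia factor, followed Tef closely. Its 4 mice had 22.1, 29.6, 22.9 and 25.3 CPM at ZT3 and 49.1, 38.5, 50.03 and 43.6 CPM at ZT6, with no overlap. The mice of ZT9 split into 70.4 and 76.8 CPM on one side and 122 and 131 CPM on the other, and the same mice, replicates 3 and 4, were also the higher ones for each of the other 5 genes at ZT9. Their mitochondrial share of counts was 28.2% and 27.5%, against 21.8% and 22.8% in the other mice of ZT9. With replicate 4 of ZT6 (27.9%) and replicate 1 of ZT15 (26.7%) they were the 4 libraries above 26%, the others lying between 18.5% and 25.3%. Without these 4, the log2 fold change was 0.51 for Dbp at ZT9 against ZT6 and 0.49 for Tef at ZT9 against ZT6 (adjusted p = 0.238 and 0.17), so that both calls were lost, and 0.68 for Hlf at ZT9 against ZT6, which still passed. With only the 8 libraries of ZT6 and ZT9, none of the 3 passed (adjusted p = 0.183 for Dbp, 0.13 for Tef and 0.079 for Hlf). Hlf rose by 0.86 ± 0.16 (log2, SE) from ZT3 to ZT6 and by 1.14 ± 0.15 from ZT6 to ZT9, and fell by 1.15 ± 0.15 from ZT15 to ZT18 (adjusted p = 0.00281, 0.000163 and 0.00015). Between ZT9 and ZT15, the time points of lane 3, neither Hlf (adjusted p = 0.438) nor Tef (0.651) differed within the lane. For both genes, the fall from ZT15 to ZT18 and the second rise cross lanes. Without the 6 libraries high in muscle markers, which leaves ZT15 with 2 mice, the fall from ZT15 to ZT18 had an adjusted p of 0.142 for Tef and 0.0504 for Hlf, while the log2 fold changes were -1.02 for Tef at ZT18 against ZT15 and -1.08 for Hlf at ZT18 against ZT15, close to those over all libraries.

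**Figure D2:**
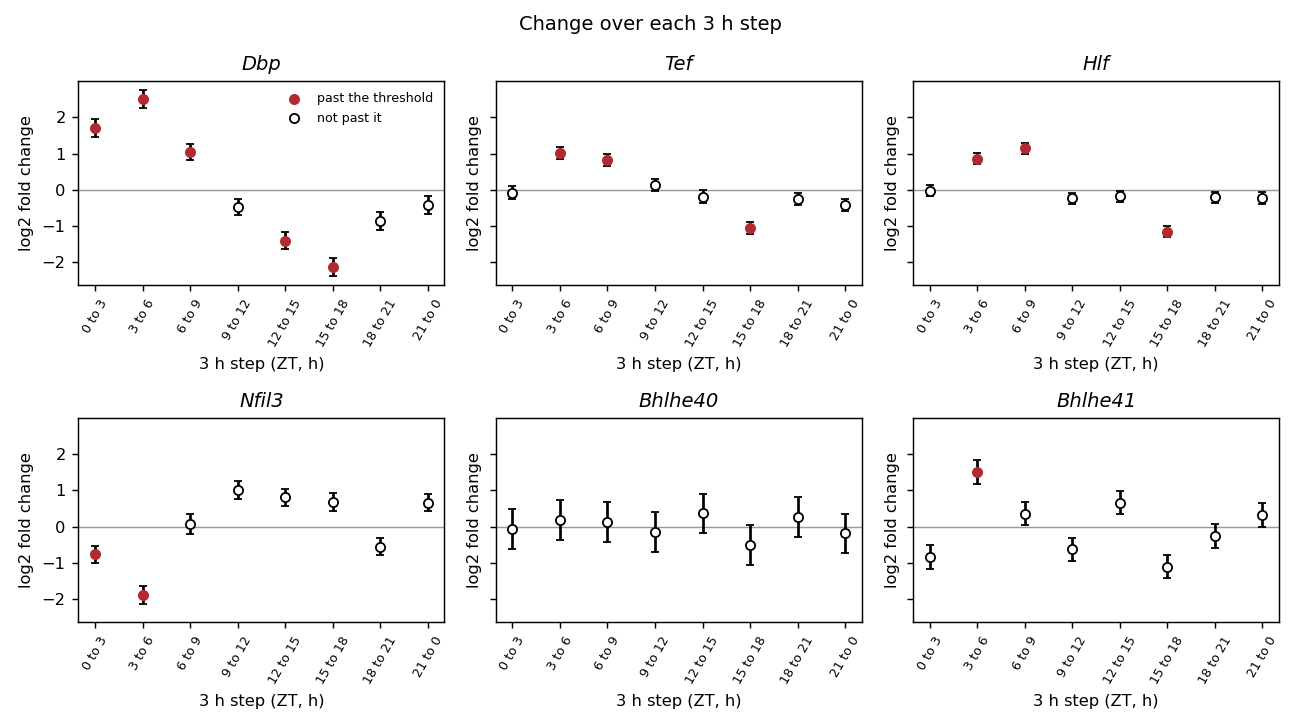
Change of each factor over each 3 h step, as edgeR log2 fold change of the later against the earlier time point (vertical axes) with bars of 1 SE; filled points pass BH 0.05 over all tested genes and open points do not. Rises of the PAR factors gather between ZT0 and ZT9 and their falls between ZT12 and ZT18, whereas the falls of Nfil3 that pass lie between ZT0 and ZT6 and no step of Bhlhe40 departs from 0 by more than its error allows.

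Nfil3, the repressor at the same D-boxes, was highest at ZT0 and lowest at ZT6 and ZT9. Its level was 30.6, 42.3, 40.0 and 38.3 CPM at ZT0 and 30.0, 17.7, 26.5 and 15.1 CPM at ZT3. At ZT6 only 3.70, 3.13, 8.47 and 8.69 CPM were left, and ZT9 was as low, with 4.66, 6.60, 7.14 and 6.89 CPM. The fall measured -0.76 ± 0.24 (log2, SE) from ZT0 to ZT3 and -1.89 ± 0.26 from ZT3 to ZT6 (adjusted p = 0.0322 and 0.000112). The first of these calls was lost with library size alone in place of TMM (0.0647), with only the 8 libraries of the contrast (0.0563), without the 6 libraries high in muscle markers (0.205), and without replicate 2 or 3 of ZT0 (0.0844 and 0.0778) or replicate 2 or 4 of ZT3 (0.0946 and 0.112). The second was lost with only the 8 libraries of that contrast (0.0508). The return was gradual: means of 12.7 ± 2.19, 22.1 ± 3.81 and 35.5 ± 6.99 CPM (SD, n = 4 each) at ZT12, ZT15 and ZT18, of which the mice of ZT9, ZT12 and ZT15 did not overlap from one time point to the next. None of these single steps passed the threshold in edgeR (adjusted p = 0.271, 0.0666 and 0.161), although the first and the second did in DESeq2 (0.0272 and 0.0265). Over 12 h, Nfil3 was 5.89-fold higher at ZT18 than at ZT6 (adjusted p = 1.81e-07).

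Nfil3 was the only one of the 6 with a 12 h component beside the 24 h cosine (adjusted p = 0.034, edgeR), a call that 0.464% of all genes passed. Its level was 39.9, 25.4, 36.0 and 40.6 CPM at ZT18 and 19.9, 26.2, 25.5 and 24.8 CPM at ZT21, and the lowest mouse of ZT0 had 30.6 CPM. The mice of ZT18 and ZT21 overlapped, and that step did not pass (log2 fold change -0.56 ± 0.24, SE, adjusted p = 0.243). Every mouse of ZT0 was above every mouse of ZT21, a step with an adjusted p of 0.0904 that crosses lanes. The 12 h call was lost when any of 9 of the 32 libraries was left out, namely each of the 4 of ZT21 (adjusted p from 0.0642 to 0.0722), replicates 1 and 3 of ZT3, 1 and 2 of ZT9 and 4 of ZT15, and without the 6 libraries high in muscle markers (0.0659).

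The DEC genes differed from each other. Bhlhe40 (DEC1) had time-point means from 123 CPM at ZT18 to 176 CPM at ZT15, and the mice overlapped at every step in the order of levels. What varied was the mouse: at ZT0 the levels were 77.5, 86.6, 280.5 and 70.9 CPM, and at ZT18 they were 239, 165, 51.5 and 36.0 CPM, a 6.64-fold range within 1 time point. Even where the time-point means of Bhlhe40 were farthest apart, between ZT15 and ZT18, the difference was -0.51 ± 0.55 (log2, SE). Its SD within time points was 0.82 on the log2 CPM scale, above that of 97.1% of all tested genes, against 0.35 for Dbp, 0.25 for Tef, 0.23 for Hlf, 0.38 for Nfil3, 0.49 for Bhlhe41 and a median of 0.20 over all genes. The time of day accounted for 11.3% of the variance of Bhlhe40, against 97.4% for Dbp, 92.5% for Tef, 93.7% for Hlf, 89.9% for Nfil3, 67.5% for Bhlhe41 and a median of 41.1% over all genes.

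Bhlhe41 (DEC2) was lowest at ZT3, with 14.8, 8.34, 8.41 and 6.58 CPM, and rose by 1.51 ± 0.33 (log2, SE) to ZT6 (34.9, 33.2, 26.0 and 14.3 CPM, adjusted p = 0.014). The mice of those time points overlapped slightly. Its mean of 34.5 ± 14.5 CPM (SD, n = 4) at ZT9 and that of 35.5 ± 12.4 CPM at ZT15 stood on either side of 22.4 ± 2.82 CPM at ZT12, from which neither differed beyond the spread (adjusted p = 0.757 and 0.285). Without the 4 libraries of high mitochondrial share, Bhlhe41 at ZT21 against ZT9 no longer passed (log2 fold change -0.73, adjusted p = 0.177). Every mouse of ZT15 was above every mouse of ZT18 (22.1, 20.4, 12.3 and 11.1 CPM), a step with an adjusted p of 0.0868 in edgeR and 0.0191 in DESeq2. Without the 6 libraries high in muscle markers, the step of Bhlhe41 at ZT6 against ZT3 had an adjusted p of 0.0501 with a log2 fold change of 1.45, and with only the 8 libraries of that contrast 0.0676.

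Counted over the 3 h steps, 2 of the 6 genes differed between ZT0 and ZT3 (13.8% of all genes), 5 between ZT3 and ZT6 (2.08%) and 3 between ZT6 and ZT9 (1.95%), of which Hlf alone passed without the 4 libraries of high mitochondrial share. Between ZT9 and ZT12 no member and 0% of all genes passed in edgeR. There, 1047 genes had an unadjusted p under 0.05, 2 members among them, and DESeq2 called 24 genes including Nfil3. In the dark phase 1 member differed between ZT12 and ZT15 (3.04%) and 3 between ZT15 and ZT18 (1.17%). No member passed between ZT18 and ZT21 (2.06%) or between ZT21 and ZT0 (7.72%). In each of these last steps, 2 members had an unadjusted p under 0.05, and DESeq2 called 1 and 0, beside 540 and 1333 of all genes. How many of all genes had an unadjusted p under 0.05 in these steps is not given. The step from ZT3 to ZT6 thus held the most calls, within lane 2: Dbp, Tef, Hlf and Bhlhe41 rose while Nfil3 fell. With only the 8 libraries of a contrast it held 3, as did the step from ZT15 to ZT18. In that fit Nfil3 (edgeR, adjusted p = 0.0508) and Bhlhe41 (0.0676) did not pass from ZT3 to ZT6.

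Over 12 h, 4 members differed between ZT12 and ZT0 (15.9% of genes), 4 between ZT15 and ZT3 (14.2%), 2 between ZT18 and ZT6 (16.9%) and 5 between ZT21 and ZT9 (9.62%). Dbp was 27.7-fold higher at ZT12 than at ZT0 and 28.7-fold lower at ZT21 than at ZT9 (adjusted p = 1.21e-12 and 1.44e-12). Tef and Hlf were 3.72-fold and 3.37-fold higher at ZT12 than at ZT0 (2.1e-08 and 1.83e-08), while Nfil3 was 2.98-fold lower (6.31e-05). Between ZT15 and ZT3, on opposite limbs of its rhythm, Nfil3 was level, with a log2 difference of -0.01 and a 95% interval from -0.48 to 0.46. Bhlhe41 was 3.73-fold higher at ZT15 than at ZT3 (0.0003).

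Fitted peak times placed the PAR genes before Nfil3. Dbp peaked at ZT10.1 ± 0.14 h (SE), Hlf at ZT11.6 ± 0.27 h, Bhlhe41 at ZT11.7 ± 0.85 h, Tef at ZT12.1 ± 0.26 h and Nfil3 at ZT20.4 ± 0.44 h. For Nfil3 the single cosine set the peak beside ZT21, where the mean (24.1 CPM) was below those of ZT18 (35.5 CPM) and ZT0 (37.8 CPM), so that its lag to the others is that of the fitted curve. No peak time is given for Bhlhe40, which had no cosine component. Dbp preceded Tef by 1.94 h (95% interval 1.51 to 2.38 h) and Hlf by 1.43 h (0.92 to 1.95 h). The Hlf peak minus that of Tef was -0.51 h, with an interval from -0.92 to -0.094 h that comes close to 0. Nfil3 peaked 10.3 h after Dbp (9.51 to 11.0 h) and 8.33 h after Tef (7.42 to 9.23 h). Bhlhe41 could not be separated from Dbp (-0.14 to 3.22 h), from Hlf (-1.45 to 1.67 h) or from Tef (-1.88 to 1.08 h). The intervals are not adjusted for the 15 pairs of members compared. With lane in the fit, Dbp peaked at ZT9.88 ± 0.28 h, Hlf at ZT10.4 ± 0.81 h, Tef at ZT11.6 ± 0.59 h and Nfil3 at ZT20.0 ± 0.67 h. Beside lane the errors of the Dbp and Hlf peaks thus span their distance, and differences between peaks were not tested in that fit. The amplitudes in it were 0.61 ± 0.13 for Hlf, 0.79 ± 0.15 for Tef and 1.71 ± 0.19 for Nfil3.

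**Figure D3:**
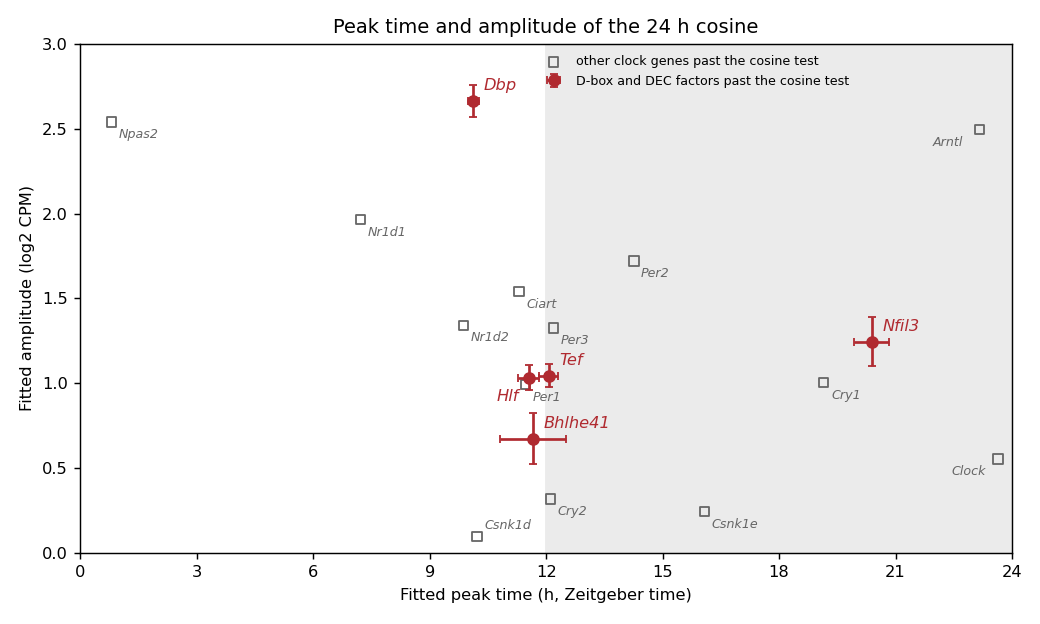
Fitted peak time (horizontal axis, hours of Zeitgeber time) and amplitude (vertical axis, log2 CPM) of the 24 h cosine, with red points and bars of 1 SE for the 5 D-box and DEC factors past the cosine test and open squares for the other clock genes past it that the text names; the shading marks the dark phase. Dbp stands highest at ZT10.1, Hlf, Tef and Bhlhe41 cluster from ZT11.6 to ZT12.1 beside Per1 and Per3, and Nfil3 lies at ZT20.4 near Cry1.

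Levels of different genes were compared per kilobase of exon (CPM divided by exon length, here RPKM). Tef (30.7 RPKM over all mice) and Bhlhe40 (29.9) were the most abundant, followed by Dbp (19.2), Nfil3 (10.3), Hlf (7.86) and Bhlhe41 (3.28). The order turned over the day. At ZT9 Dbp led with 57.0 RPKM, ahead of Tef with 48.7 and Bhlhe40 with 32.3. At ZT0, Dbp was last of all with 1.49 RPKM, below Bhlhe41 with 2.54 RPKM.

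Summed over Dbp, Tef and Hlf, the PAR factors had 19.6 ± 5.85 RPKM (SD, n = 4) at ZT0 and 121 ± 26.7 RPKM at ZT9. Nfil3 went the other way, from 18.7 ± 2.50 to 3.12 ± 0.56 RPKM. The ratio of PAR sum to Nfil3 was 0.76 to 1.83 in the 4 mice of ZT0 and 31.1 to 42.2 in those of ZT9, and it was back to 1.44 to 2.68 at ZT18. At ZT6 it ranged from 9.84 to 46.6 from mouse to mouse, the widest spread of the day. Dbp made up 7.90% ± 1.66 (SD, n = 4) of the PAR sum at ZT0, 47.0% ± 1.73 at ZT9 and 7.73% ± 1.28 at ZT21, and Tef had 14.3 of the 19.6 RPKM at ZT0. These are transcript levels, and the balance of the proteins at D-boxes was not measured.

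Mice of the same time point also differed together. For each pair of members, the log2 CPM of 32 mice, less the mean of their time point, was correlated and tested by permuting mice within time points (100000 resamples, two-sided, BH over 15 pairs). Dbp and Tef deviated together (r = 0.678, permutation p = 0.00018, BH 0.00165, Spearman rho = 0.722, p = 0.00037), also without the 2 mice farthest from the median (r = 0.62). Within lanes 2, 3 and 4 their r was 0.662, 0.618 and 0.952 (exact permutation p = 0.00883, 0.214 and 0.0243). Bhlhe40 and Bhlhe41 deviated together as strongly (r = 0.658, permutation p = 0.00022, BH 0.00165, rho = 0.668, p = 0.00025, r = 0.634 without the 2 farthest mice). Their r was 0.522, 0.689 and 0.928 in the 3 lanes (exact permutation p = 0.129, 0.00919 and 0.0312).

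Weaker relations linked Hlf with Tef (r = 0.593, permutation p = 0.008, BH 0.03, rho = 0.613, p = 0.00511, r = 0.582 without the 2 farthest mice) and with Dbp (r = 0.523, permutation p = 0.0101, BH 0.0302, rho = 0.571, p = 0.00632, r = 0.551 without them). For Dbp and Hlf, the lanes gave 0.263, 0.904 and 0.761 (exact permutation p = 0.385, 0.00796 and 0.00868), and for Tef and Hlf 0.582, 0.791 and 0.722 (exact permutation p = 0.116, 0.14 and 0.0399). Tef and Bhlhe41 gave r = 0.583 (permutation p = 0.00699, BH 0.03, rho = 0.486, p = 0.0225, r = 0.479 without the 2 farthest mice). This relation was 0.644 and 0.811 in lanes 2 and 3 but 0.023 in lane 4 (exact permutation p = 0.0554, 0.0474 and 0.986). Tef and Nfil3 ran opposite, with r = -0.482 (permutation p = 0.0126, BH 0.0315, rho = -0.482, p = 0.0148, r = -0.533 without the 2 farthest mice), though not in lane 3, where r was 0.242 against -0.624 in lane 2 and -0.614 in lane 4 (exact permutation p = 0.611, 0.00781 and 0.0694).

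Without the 4 libraries of high mitochondrial share (28 mice left, with deviations taken anew), r was 0.575 for Dbp with Tef, 0.685 for Bhlhe40 with Bhlhe41, 0.582 for Tef with Hlf, 0.434 for Dbp with Hlf, 0.379 for Tef with Bhlhe41 and -0.475 for Tef with Nfil3. The part of that share in these relations was not tested further.

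Dbp and Nfil3 had r = -0.545, which did not pass after adjustment (permutation p = 0.0409, BH 0.0877, rho = -0.437, p = 0.0537, r = -0.39 without the 2 farthest mice and -0.611 without the 4 libraries of high mitochondrial share). In lanes 2, 3 and 4 its r was -0.843, 0.316 and -0.349 (exact permutation p = 0.0102, 0.444 and 0.418). At ZT6, replicates 1 and 2 had high Dbp (104 and 111 CPM) with low Nfil3 (3.70 and 3.13 CPM), and replicates 3 and 4 had lower Dbp (67.8 and 47.5 CPM) with Nfil3 at 8.47 and 8.69 CPM. The remaining 8 pairs had BH values from 0.271 to 0.993. Deviations of Nfil3 also moved with the summed endothelial markers (r = 0.613) and lymphoid markers (0.513), and those of Tef opposite to them (-0.425 and -0.552), as descriptions over the same 32 mice. With lymphoid markers, Dbp had r = -0.443 and Bhlhe41 -0.387, and Dbp had 0.398 with the summed blood markers. Endothelial sums ran from 514 to 801 CPM and lymphoid sums from 0.736 to 4.40 CPM, with Cd3e, Cd79a and Ms4a1 each under 1 CPM on average, and their part in these relations was not tested. With summed muscle markers, the deviations of the 6 members had r from -0.318 to 0.131.

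**Figure D4:**
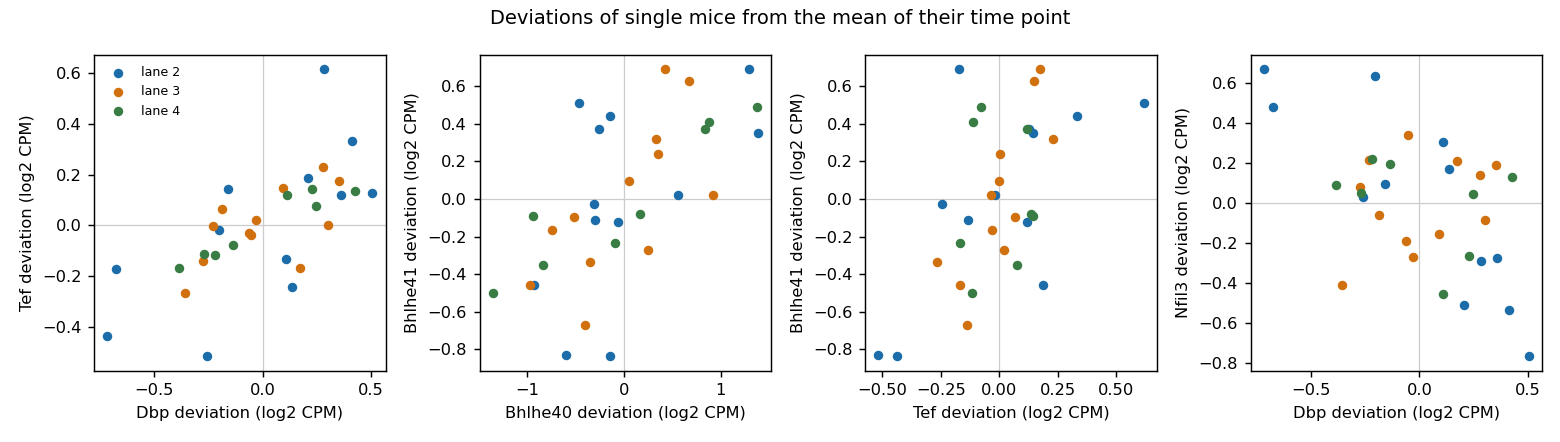
Deviations of single mice from the mean of their time point, in log2 CPM on both axes, with 1 point for each of 32 mice coloured by sequencing lane, for 4 pairs of members. Dbp with Tef and Bhlhe40 with Bhlhe41 form rising clouds (r = 0.678 and 0.658), Tef with Bhlhe41 a looser one (0.583), and the falling cloud of Dbp with Nfil3 (-0.545) has r = -0.843 in lane 2.

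Among 13449 tested genes with a mean of at least 1 CPM, the 3 whose log2 CPM followed each member most closely over the 32 libraries were named as a description. The points share their lanes and the common daily course. For Dbp they were Por (r = 0.936), which encodes the electron donor of cytochrome P450 enzymes, the REV-ERB gene Nr1d2 (0.930) and the glutathione transferase gene Gstt2 (0.929). Tef and Hlf were each other's nearest (0.957), followed by Per3 (0.937 for Tef and 0.924 for Hlf) and then by Nrg4 (0.909), a secreted growth factor gene of brown fat, for Tef and by the nuclear pore gene Ndc1 (0.919) for Hlf. Nfil3 was followed by the polycomb gene Phc2 (0.886) and by Gm8355 (0.870) and Gm15459 (0.864). Bhlhe41 was closest to Tef (0.760), ahead of Spsb1 (0.755) and Lima1 (0.742). Bhlhe40 had no close companion, its best being the coactivator gene Ncoa6 (0.634), the MAP kinase phosphatase gene Dusp7 (0.633) and Gm15946 (0.621).

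Within time points, the deviations of both DEC genes were compared with those of single genes, which were named after their values were seen and carry no test. Of the 5 most alike genes of each DEC gene, Lfng and Celf1 were on both lists, and of the 5 most opposite Pck1. Lfng, a glycosyltransferase of Notch receptors, came first for Bhlhe40 (r = 0.823) and for Bhlhe41 (0.854). Pck1, the gluconeogenic and glyceroneogenic carboxykinase, was the most opposite gene for both (-0.796 and -0.781). Angptl4, an inhibitor of lipoprotein lipase, had -0.662 and -0.750, and Pdk4, a kinase that shuts pyruvate dehydrogenase, -0.643 and -0.699. Ppp1r3c, which directs glycogen synthesis, had 0.776 and 0.688, and Angptl8 0.711 and 0.486. For Dbp the same genes lay near 0, with r from -0.174 for Pdk4 to 0.112 for Lfng, Pck1 being at 0.018. Tef lay on the side of the DEC genes, with -0.516 for Angptl4, -0.470 for Pdk4, -0.368 for Pck1, 0.306 for Ppp1r3c and 0.3 for Lfng. Hlf had -0.379 with Pdk4 but -0.028 with Pck1, 0.094 with Lfng, 0.081 with Ppp1r3c and -0.280 with Angptl8. Whether these values differ between the members was not tested. The thermogenic gene Ucp1 had -0.091 with Bhlhe40 and -0.184 with Bhlhe41.

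Of 18 other clock genes, all tested, 14 had a 24 h cosine component (36.1% of all tested genes) and 12 kept it beside lane (17.2%). The median amplitude of the 18 was 0.854. Arntl, the activator's gene, stood opposite to the PAR factors: it peaked at ZT23.2 with an amplitude of 2.50, from 34.4 ± 4.07 CPM (SD, n = 4) at ZT0 down to 1.15 ± 0.20 CPM at ZT12. Clock and Npas2 peaked near it, at ZT23.6 and ZT0.80. Nr1d1, the REV-ERB alpha gene, preceded Dbp with a peak at ZT7.22 (amplitude 1.96), and Nr1d2 came at ZT9.87 (1.34), close to Dbp. Per1, Ciart, Cry2 and Per3 peaked from ZT11.3 to ZT12.2, among Hlf, Bhlhe41 and Tef, and Per2 followed at ZT14.3 (1.72). Cry1, with its peak at ZT19.2, lay close to Nfil3. Csnk1e (ZT16.1) and Csnk1d (ZT10.2) passed with small amplitudes (0.24 and 0.10). Rora, Rorb and Fbxl21 did not pass the cosine test, with adjusted p of 0.21, 0.731 and 0.562.

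Of 9 genes known from liver and other tissues as targets of D-box factors, 5 were tested and all 5 had a cosine component, 4 of them beside lane, with a median amplitude of 0.521. The other 4, Nr1i3, Cyp2a4, Cyp2a5 and Cyp7a1, had at most 8 reads in any library. Por peaked at ZT10.4, close to Dbp, from 160 ± 19.9 CPM (SD, n = 4) at ZT21 to 311 ± 17.9 CPM at ZT9. Pdxk, the pyridoxal kinase that makes active vitamin B6, peaked at ZT14.7, from 58.8 ± 4.00 CPM at ZT3 to 98.5 ± 10.3 CPM at ZT15. Ppara, the fatty acid-sensing nuclear receptor, peaked at ZT8.58 and Cyp2b10, a xenobiotic-metabolizing P450, at ZT19.2. Alas1, the rate-limiting enzyme of haem synthesis, peaked at ZT22.1 and had an adjusted p of 0.0344, and 0.28 beside lane. The 5 fitted peaks were thus spread over the day. Those of Cyp2b10 and Alas1 did not fall where their means were highest, which was at ZT15 (26.4 ± 19.8 CPM) and ZT3 (608.5 CPM).

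In related factor families the share with a cosine component was near the 36.1% of all tested genes. Of 6 factors of the C/EBP family, which are basic leucine zipper proteins, 5 were tested and 2 had a cosine component: Cebpa at ZT6.55 (amplitude 0.29) and Cebpg at ZT20.1 (0.14). Of 6 HES and HEY factors, relatives of the DEC proteins, 5 were tested and 2 passed: Hes1 at ZT8.53 (0.39) and Heyl at ZT5.45 (0.33). The median amplitude was 0.203 over the tested C/EBP genes and 0.220 over the tested HES and HEY genes, against 1.04 over the 6 members.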

How the data were processed

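Total RNA of 32 iBAT samples was read from both ends in stranded libraries. The authors aligned reads to mm10 with GSNAP (2017-09-11) and deposited raw counts per Ensembl gene made with HTSeq (0.6.1), in a single table with a column for each mouse, which were used as deposited. Time points came from the labels, and lanes from the library names.

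Identifiers were matched to symbols for 50376 of 50686 genes. Genes with low counts were removed with edgeR (4.0.16, R 4.3.3), and TMM-scaled counts were tested with its quasi-likelihood fit over all 8 time points, with BH adjustment at 0.05. Contrasts were neighbouring time points and those 12 h apart. Cosine peaks and amplitudes came from least squares after a log2 transform of CPM (prior count 2). JTK was an own implementation with periods of 21 and 24 h (Python 3.11.15, numpy 2.4.6, scipy 1.17.1). The fits were tested on simulated data. Nothing in the labels says that replicate numbers pair mice.

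The members and gene lists were chosen with earlier results of these data known. Named beyond the lists were the 3 genes most like each member over 32 libraries and, chosen after their values were seen, genes correlated with the DEC genes within time points. Alternatives were scaling by library size alone or with the size factors of DESeq2, no count filter, no mitochondrial genes, DESeq2 (1.42.0), a prior count of 0.5, lane or the replicate number in the fit, only the 8 libraries of a contrast, each library left out, and, added after seeing the data, the 6 libraries high in muscle markers or the 4 of high mitochondrial share left out. Columns of no sample were not met. A few genes counted in the lists are not reported here by name.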

Additional observations from a re-analysis of the deposited data

Results flagged for a closer look

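Bhlhe40, the DEC1 repressor gene, held the values that stood apart from the other mice of their time point. In replicate 3 of ZT0 it reached 280.5 CPM while the remaining mice lay between 70.9 and 86.6 CPM, a gap of 0.925 of the group's whole range. In replicate 3 of ZT6 it reached 200.0 CPM, the remaining mice lying between 113 and 122 CPM, a gap of 0.897 of the range. The ZT0 mouse is also one of the 6 libraries with over 3000 CPM of summed muscle markers, and the part of this in its Bhlhe40 level was not tested. Of the 48 groups of 4 mice examined, one for each gene and time point, these 2 stood apart by Dixon's 95% limit, and chance alone gives about 1 in 20.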

How the results depend on the processing

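No member contrast past the threshold changed direction under the alternatives run on it, nor did the 6 relations between members past BH 0.05 when libraries were left out, although Tef with Nfil3 had r = 0.242 within lane 3. Several relations that did not pass changed sign, of which these are examples. Without the 4 libraries of high mitochondrial share, r was -0.029 for Dbp with Bhlhe41 and -0.075 for Tef with Bhlhe40. With 1 mouse left out it ran from -0.103 to 0.064 for Hlf with Nfil3 and from -0.021 to 0.078 for Hlf with Bhlhe40. Without the 2 farthest mice it was 0.057 for Nfil3 with Bhlhe41. Within lane 3 it was 0.316 for Dbp with Nfil3 and 0.357 for Dbp with Bhlhe40 (-0.194 over all mice). Within lane 4 it was -0.304 for Hlf with Bhlhe41 (0.307 over all mice) and -0.086 for Nfil3 with Bhlhe40 (0.258). Members passing the 24 h cosine (5), JTK (5), the cosine beside lane (4) and the test over time points (5) were as many with each of the 32 libraries left out in turn. Leaving out single libraries gave 0 to 1 members with a 12 h component, 1 to 3 differing between ZT3 and ZT0, 2 to 3 between ZT9 and ZT6, 1 to 2 between ZT15 and ZT12, 0 to 1 between ZT21 and ZT18, 0 to 1 between ZT0 and ZT21, 2 to 3 between ZT18 and ZT6, 4 to 5 within lane 2 and 0 to 1 within lane 4. Tef was the gene gained between ZT0 and ZT21 (adjusted p = 0.0124 without replicate 1 of ZT0). With library size alone, 1 member differed between ZT3 and ZT0. DESeq2 called 3 between ZT3 and ZT0, 1 between ZT12 and ZT9, 2 between ZT15 and ZT12, 4 between ZT18 and ZT15, 1 between ZT21 and ZT18, 3 between ZT18 and ZT6 and 2 within lane 4. Of all genes it called 2356, 24, 659, 374, 540, 2702 and 999, in the same order. For the other alternatives the counts over all genes are not given. With only the 8 libraries of a contrast, 1 member differed between ZT3 and ZT0, 3 between ZT6 and ZT3, 0 between ZT9 and ZT6, 1 between ZT21 and ZT18, 1 between ZT0 and ZT21 and 3 between ZT18 and ZT6, a fit with fewer samples. Without the 6 libraries high in muscle markers, which also has fewer samples, 0 members had a 12 h component, 1 differed between ZT3 and ZT0, 4 between ZT6 and ZT3, 1 between ZT18 and ZT15, 4 within lane 2 and 0 within lane 4. Without the 4 libraries of high mitochondrial share, 3 differed between ZT3 and ZT0, 1 between ZT9 and ZT6, 4 between ZT18 and ZT15, 1 between ZT21 and ZT18, 4 between ZT18 and ZT6 and 4 between ZT21 and ZT9. Without the count filter, 2 differed within lane 4. With the replicate number as a block, 0 differed within lane 4 (Dbp, adjusted p = 0.0897), and the numbers did not pair the mice: deviations of same-numbered samples had a mean correlation of -0.0333, from -0.726 to 0.767 over 112 pairs. Where not stated, the cause of a change was not tested. Of 29 member contrasts past the threshold, 247 of 261 values under the other alternatives and 922 of 928 with 1 library left out stayed past it. A contrast compares 8 libraries, so most of the 928 refits left out a library of neither group. Such a refit touches the contrast only through the shared fit, and every loss came from a library of the contrast itself. Lane tied to time, and 4 mice a time point, limit all steps between lanes, and at 53 reads the lowest Nfil3 count is the least precise value.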
